A study of Mus musculus with 15 samples.

Results

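The comparison described here sets the distal colon of untreated Irf1-/- mice against that of untreated B6 mice. It takes in 3 Irf1-/- libraries and the 3 B6 libraries deposited in the same table, named control set 2 here, which are 6 of the 15 RNA-seq libraries of the series. They were chosen by their labels alone, and all 12588 genes of that table are covered. The study follows Irf1 in colitis-associated colorectal cancer. The mutants carry the genotype Irf1-/- on C57BL/6, the B6 mice are wildtype C57BL/6, and neither group received AOM or DSS. The labels give neither the allele, nor the exons removed, nor the age or the sex of the mice, and each library is taken as 1 mouse. Other untreated B6 mice (control set 1, 3 libraries), B6 mice taken at D26 (3) and Irf1-/- mice taken at D26 (3) are used as further comparisons. The mice taken at D26 had received AOM, a colon carcinogen, at 7 mg/kg and then 2% DSS, which injures the epithelium, in the water from D8 to D11.

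Irf1 is a transcription factor of the interferon regulatory factor family that is induced by interferon gamma and binds repeats of the letters GAAA in promoters. Genes it is known to drive include those that cut and load peptides for MHC class I, the guanylate-binding proteins, and sensors of nucleic acid. In the colon these genes are active in epithelium as well as in immune cells, and low interferon signals keep part of them on without infection.

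Irf1 transcripts were counted in all 6 libraries. Irf1 had 141, 128 and 130.1 CPM in B6 and 79.1, 117 and 87.3 CPM in Irf1-/- colons. The mutant with the highest level, mouse 2, lay below the lowest B6 mouse, so the groups did not overlap, and the difference did not pass the threshold for a call (log2 fold change, FC, -0.49, standard error, SE, 0.12, adjusted p = 0.128, by the quasi-likelihood test of edgeR and the adjustment of Benjamini and Hochberg). The same mutants over control set 1 had a log2 FC of -0.70 (adjusted p = 0.00990), a call at the thresholds used here, and treated Irf1-/- over treated B6 mice had -0.93 (adjusted p = 0.0117). Reads per gene do not show whether these transcripts can make protein. Markers of the colon wall were present in every library. The 18 measured of 20 markers of absorptive colonocytes, led by Krt8, summed to 11937, 10029.7 and 12523 CPM in B6 and 11256, 11731 and 11596 CPM in Irf1-/- colons. The 18 markers of smooth muscle summed to 10435, 10382 and 11225 CPM in B6 and 10654, 9815 and 12442 CPM in Irf1-/- colons, so these libraries hold muscle wall as well as mucosa. Xist, which is transcribed from the inactive X chromosome, had between 27774 and 83932 reads in each of the 6 libraries.

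Between 22266607 and 22869853 reads per library were counted. Across genes, log2 CPM correlated at r = 0.993 to 0.994 between Irf1-/- libraries, 0.987 to 0.990 between B6 libraries and 0.985 to 0.989 between the groups, values that share the levels of all genes and carry no test. Of 12588 genes, 51 (0.405%) were called, at an FC of at least 1.5 and a Benjamini-Hochberg adjusted p under 0.01 in edgeR's quasi-likelihood test. In Irf1-/- colons 40 of them (0.318% of the genes) were lower and 11 (0.0874%) higher. For comparison, genes at an unadjusted p under 0.05 were evenly split, with 658 lower and 655 higher, and so were those with an FC of at least 1.5 at any p, with 120 lower and 107 higher. The median log2 FC of all genes was 0.0019, and 50.8% were positive. In none of the 51 called genes did libraries of 1 group reach into the range of the other, and in the whole table the groups did not overlap for 1943 genes (15.4%). The authors kept only genes above a lower limit, near 5.03 CPM in 3 libraries. Genes such as Zbp1 and Gbp4 met it in the B6 libraries alone, so their groups could not overlap. The called lower genes had log2 FC from -3.43 to -0.62 with a median of -1.13. Of these 40, 22 were at least 2-fold and 6 at least 4-fold lower, and their mean levels in B6 ran from 5.53 to 219 CPM. The called higher genes had log2 FC from 0.62 to 1.49 with a median of 1.12, and mean levels in B6 from 5.31 to 66.7 CPM.

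The number of calls moved with the tool and with single mice. DESeq2 called 76 lower and 31 higher genes, and edgeR's exact test 84 and 41. Leaving out 1 B6 mouse in turn gave 31, 45 and 30 lower genes (30, 34 and 27 of them among the 40). Higher genes were then 9, 19 and 7 (5, 5 and 3 of them among the 11). Leaving out 1 Irf1-/- mouse in turn gave 20, 30 and 25 lower genes (19, 25 and 24 among the 40). Higher genes were then 6, 3 and 9 (5, 3 and 4 among the 11). Of the called genes, 18 lower and 3 higher ones passed in all 6 of these fits. Those that passed in none were Nmi and Mid1 among the lower genes and Cyp2c69, Ffar2 and Stc2 among the higher ones. Near the thresholds, 14 further genes had an adjusted p under 0.01 with an FC under 1.5, and 13 passed the limit of 1.5 on the FC at adjusted p between 0.01 and 0.02. The last group, named after their values were seen, includes Tgtp2 (log2 FC -2.09, adjusted p = 0.0145), an interferon-inducible GTPase, Herc6 (-0.83, adjusted p = 0.0114), which attaches ISG15 to proteins, and Cldn4 (1.08, adjusted p = 0.0138), a protein of tight junctions.

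**Figure D1:**
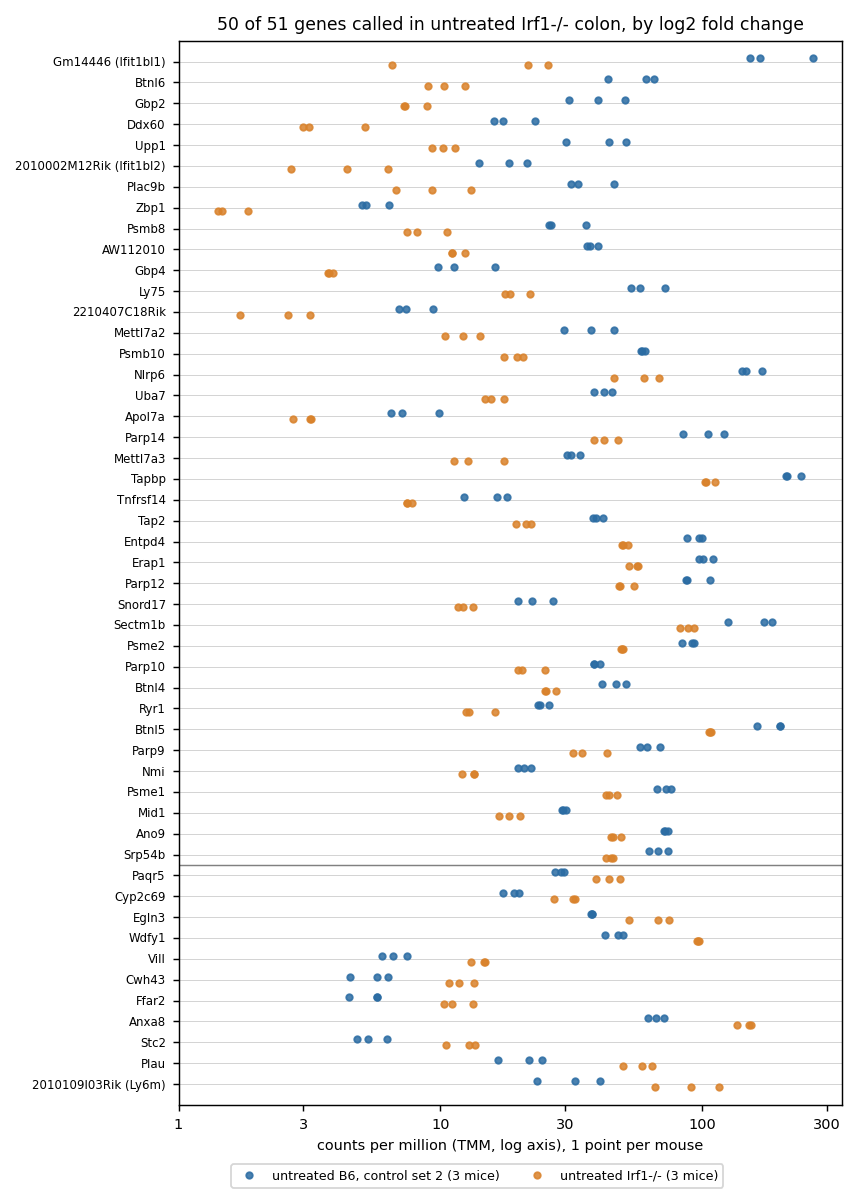
Levels of 50 of the 51 called genes in each of 6 mice, in CPM on a log axis, with 3 B6 mice of control set 2 in blue and 3 Irf1-/- mice in orange. Genes are in order of log2 fold change, 39 lower ones above the line and the 11 higher ones below it, and no gene has an Irf1-/- mouse within the range of the B6 mice.

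Genes that make peptides for MHC class I were called lower at several steps. Immunoproteasomes are proteasomes whose catalytic subunits are exchanged for Psmb8, Psmb9 and Psmb10. Psmb10 had 58.8, 58.2 and 60.3 CPM in B6 and 17.5, 20.8 and 19.7 CPM in Irf1-/- colons, and Psmb8 had 26.5, 36.1 and 25.998 CPM in B6 and 8.11, 10.6 and 7.48 CPM in Irf1-/- colons. Mice of the same group were within a few CPM of each other for Psmb10, and every mutant was far below every B6 mouse for both genes. Psmb10 was at 32.6% and Psmb8 at 29.5% of the B6 mean (log2 FC -1.61 and -1.76, adjusted p = 1.99e-05 and 0.000691, edgeR's quasi-likelihood test). Psmb9 had 11.2, 13.99 and 11.2 CPM in B6 and 4.03, 8.34 and 4.36 CPM in Irf1-/- colons. Mutant mouse 2 stood above the other mutants and below every B6 mouse, and the gene was not called in this test or by voom (log2 FC -1.12, adjusted p = 0.0796), while DESeq2 and the exact test called it lower (adjusted p = 0.000292 and 0.00138). The activator that opens the proteasome, made of Psme1 and Psme2, had smaller log2 FC. Psme1 had 67.3, 72.7 and 75.9 CPM in B6 and 43.9, 47.2 and 42.8 CPM in Irf1-/- colons, and Psme2 had 83.5, 93.3 and 91.7 CPM in B6 and 49.5, 49.9 and 49.2 CPM in Irf1-/- colons. All 3 mutants lay below all B6 mice for both subunits, at log2 FC of -0.69 and -0.85 (adjusted p = 0.00109 and 0.000143). Psme1 lost its call without Irf1-/- mouse 1 (adjusted p = 0.0108). Psme2, Psmb8 and Psmb10 passed with each mouse left out. Pomp, which assembles new proteasomes, had log2 FC -0.16, adjusted p = 0.461. Of the 6 measured genes of this list 4 were called lower, 0 were positive and the median log2 FC was -0.99. The 16 other subunits of the core and other activators, which are made without interferon, had 0 calls in this test and by DESeq2, the exact test or voom, 2 genes at an unadjusted p under 0.05, 3 positive genes and a median of -0.078. Over all genes tested, 50.8% were positive and the median was 0.0019.

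Beyond the proteasome, peptides are carried into the endoplasmic reticulum by Tap1 and Tap2, trimmed there by Erap1, and loaded with the help of tapasin, the product of Tapbp. Tapbp had 239, 211 and 208 CPM in B6 and 102, 112 and 103 CPM in Irf1-/- colons. Tap2 had 41.6, 38.2 and 39.4 CPM in B6 and 21.2, 22.1 and 19.5 CPM in Irf1-/- colons, and Erap1 had 110.3, 101 and 96.9 CPM in B6 and 52.4, 56.9 and 56.2 CPM in Irf1-/- colons. The mutants were close to each other for each gene, with means at 48.3%, 52.7% and 53.8% of the B6 mean. Their log2 FC were -1.05, -0.92 and -0.90 (adjusted p = 0.000133, 0.000373 and 0.000184), and they passed with each mouse left out. Tap1, the partner of Tap2, had 29.9, 38.7 and 25.5 CPM in B6 and 22.6, 36.2 and 22.8 CPM in Irf1-/- colons. Mouse 2 was highest in each group, and the groups overlapped (log2 FC -0.21, adjusted p = 0.811). The class I heavy chains were not called. H2-K1 had 712, 682 and 712 CPM in B6 and 536, 633 and 572 CPM in Irf1-/- colons, a log2 FC of -0.27, adjusted p = 0.208. H2-Q2, a chain outside the classical ones, had log2 FC -0.47, adjusted p = 0.0172. Counts of these chains are uncertain, since they are near-identical to each other. In the whole list of class I chains and loading factors, 21 of 25 genes were measured, 3 were called lower, 4 were positive and the median was -0.13. MHC class II genes, which present peptides from outside the cell, had a median of 0.17 with 9 of 11 positive against control set 2 (a median from 0.011 to 0.52 with a mouse left out), and -0.092 with 3 of 11 positive against set 1. In treated mice their median was -0.57 with 1 of 11 positive. The markers of B cells and plasma cells had medians of 0.64 (13 of 13 positive) against set 2 and -0.019 (6 of 13) against set 1. The class II genes had 0 calls by edgeR's quasi-likelihood test, DESeq2, the exact test or voom, and 1 gene at an unadjusted p under 0.05. That gene, Ctss, a protease of the same route, had log2 FC -0.41, adjusted p = 0.0380.

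Interferon-inducible GTPases coat vacuoles that hold microbes. Gbp2 had 31.01, 50.7 and 40.1 CPM in B6 and 8.86, 7.27 and 7.31 CPM in Irf1-/- colons, and Gbp4 had 11.3, 16.2 and 9.79 CPM in B6 and 3.72, 3.77 and 3.87 CPM in Irf1-/- colons. The highest mutant had less than the lowest B6 mouse by more than 3-fold for Gbp2 and by more than 2-fold for Gbp4 (log2 FC -2.38 and -1.71, adjusted p = 0.000143 and 0.00244). Gbp4 met the lower limit of CPM in the B6 libraries alone, so its groups could not overlap. A gene kept in this way can only be lower in the mutants, which bears on counts and medians of lists. Gbp2 was called with each mouse left out, and Gbp4 lost its call without Irf1-/- mouse 1, 2 or 3 (adjusted p = 0.0170, 0.0181 and 0.0149). Reads of these genes can be confused with near-identical relatives. Irgm2, the most abundant member measured, had log2 FC -0.37, adjusted p = 0.128, and Gbp6 had -1.06, adjusted p = 0.0332. Of 13 measured genes of 25, 2 were called lower, 0 were positive and the median was -0.62. Of these 13, DESeq2 called 5, the exact test 5 and voom 2, and 5 were called lower over control set 1. Among all 12588 genes these tools called 107, 125 and 43, and 96 of 12417 were called lower over control set 1.

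Uba7 starts the attachment of ISG15, a ubiquitin-like protein, and Parp9, Parp10, Parp12 and Parp14 attach or read ADP-ribose. Uba7 had 45.4, 42.3 and 38.6 CPM in B6 and 14.8, 17.5 and 15.7 CPM in Irf1-/- colons, and Parp14 had 121, 105 and 84.3 CPM in B6 and 42.3, 47.9 and 38.6 CPM in Irf1-/- colons. The Uba7 levels of the groups were each tight and far apart, and the Parp14 levels of the mutants were below the lowest B6 mouse by a wide margin. They were at 37.999% and 41.4% of the B6 mean (adjusted p = 9.17e-05 and 0.00109, edgeR's quasi-likelihood test). Parp12, Parp10 and Parp9 had log2 FC -0.89, -0.85 and -0.77 (adjusted p = 0.00131, 0.00244 and 0.00882). With single mice left out, the adjusted p of these 3 genes reached 0.0122, 0.0160 and 0.0515, and they passed in 4, 3 and 1 of the 6 fits. Parp12 lost its call without Irf1-/- mouse 1 or 3 and Parp10 without B6 mouse 3 or Irf1-/- mouse 1 or 3, and Parp9 passed only without Irf1-/- mouse 2. Trim25, the most abundant gene of the list, had log2 FC -0.072, adjusted p = 0.867. Of 12 measured genes 5 were called lower, 0 were positive and the median was -0.68. Of these 12, DESeq2 called 7, the exact test 6 and voom 5, and 5 were called lower over control set 1. All 12588 genes held 107, 125 and 43 calls by these tools, and 96 of 12417 were lower over control set 1.

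Among sensors of nucleic acid and antiviral effectors, Ddx60, a helicase that aids the sensing of viral RNA, and Zbp1, which binds left-handed nucleic acid and starts necroptosis, were called. Ddx60 had 22.9, 17.4 and 15.98 CPM in B6 and 3.15, 5.15 and 2.99 CPM in Irf1-/- colons, and Zbp1 had 6.39, 5.004 and 5.21 CPM in B6 and 1.46, 1.42 and 1.85 CPM in Irf1-/- colons. The lowest B6 mouse was above the highest mutant by more than 2-fold for each gene (log2 FC -2.32 and -1.81, adjusted p = 0.000691 and 0.00131). Zbp1 is close to the lower limit of the table and met it in the B6 libraries alone, so its groups could not overlap. It lost its call without Irf1-/- mouse 1 or 2 (adjusted p = 0.0122 and 0.0121). Oasl2, an oligoadenylate synthetase-like gene, had log2 FC -1.55, adjusted p = 0.0380, and Ifih1, a sensor of long RNA, had -0.68, adjusted p = 0.0264. In the whole list, 9 of 40 measured genes were positive, 2 were called lower and the median was -0.12. Of these 40, DESeq2 called 6, the exact test 7 and voom 2, and 6 were called lower over control set 1, where the median was -0.32. Calls among all 12588 genes were 107, 125 and 43, and 96 of 12417 genes were called lower over control set 1. Gm14446 and 2010002M12Rik, now named Ifit1bl1 and Ifit1bl2, are relatives of the interferon-induced Ifit genes. Gm14446 had 264, 166 and 152 CPM in B6 and 25.9, 21.6 and 6.51 CPM in Irf1-/- colons. Every mutant was at least 5-fold below the lowest B6 mouse, and mutant mouse 3 had less than the other mutants (log2 FC -3.43, adjusted p = 0.00244). The call was lost without Irf1-/- mouse 2 (adjusted p = 0.0170). 2010002M12Rik had 21.4, 13.99 and 18.3 CPM in B6 and 4.39, 6.30 and 2.68 CPM in Irf1-/- colons (log2 FC -2.005, adjusted p = 0.00535) and passed only without B6 mouse 2 or Irf1-/- mouse 2 among the fits with a mouse left out (adjusted p up to 0.0307). It lost its call with the replicate block and over control set 1 (log2 FC -1.33, adjusted p = 0.0205). These genes are similar in sequence, and reads can be assigned to the wrong copy.

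Nlrp6 is a sensor of the inflammasome family that is made mainly by intestinal epithelium. It had 148, 142 and 169 CPM in B6 and 45.9, 59.8 and 68.5 CPM in Irf1-/- colons. The highest mutant was more than 2-fold below the lowest B6 mouse, and Nlrp6 passed with each mouse left out (log2 FC -1.40, adjusted p = 0.000691). Casp12 and Mlkl, the latter the pore former of necroptosis, had log2 FC -0.82 and -0.74 (adjusted p = 0.0131 and 0.0123). Of 33 measured genes of pyroptosis, necroptosis and apoptosis, 2 were called lower, 10 were positive and the median was -0.061. Of these 33, DESeq2 called 4, the exact test 4 and voom 2, and 7 were called lower over control set 1. For all 12588 genes the tools gave 107, 125 and 43 calls, and 96 of 12417 genes were lower over control set 1. Gsdmc4, the most abundant of them, had log2 FC -0.22, adjusted p = 0.607.

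Butyrophilin-like proteins on intestinal epithelial cells hold and shape gamma-delta T cells among the epithelium. Btnl6 had 65.4, 43.8 and 60.9 CPM in B6 and 8.99, 10.3 and 12.5 CPM in Irf1-/- colons. Btnl4 had 50.98, 41.5 and 46.7 CPM in B6 and 25.4, 25.2 and 27.6 CPM in Irf1-/- colons, and Btnl5 had 198, 161 and 197 CPM in B6 and 106, 108 and 107 CPM in Irf1-/- colons. Btnl6 was at 18.7% of the B6 mean, against 56.2% for Btnl4 and 57.7% for Btnl5, and no mutant reached the lowest B6 mouse for any of them. Their log2 FC were -2.42, -0.83 and -0.79 (adjusted p = 9.17e-05, 0.00131 and 0.00131, edgeR's quasi-likelihood test). Btnl6 was called with each mouse left out. Btnl4 lost its call without Irf1-/- mouse 1 or 2 (adjusted p = 0.0121 and 0.0114) and Btnl5 without any 1 of the mutants (adjusted p up to 0.0122). Btnl1, the other measured gene of the family, had log2 FC -0.17, adjusted p = 0.711. Btnl1 was called lower by the same test over control set 1 (log2 FC -0.90, adjusted p = 0.00326), and in treated mice it had -1.44 (adjusted p = 0.0176). Btnl4, Btnl5 and Btnl6 are near-identical, so reads can be assigned to the wrong gene. Btnl5 is now named Btnl5-ps, a name for a pseudogene, so its reads do not stand for a protein. Of the 35 markers of T cells, intraepithelial lymphocytes and NK cells, only 4 reached the table, led by Cd8b1, and they summed to 38.1, 41.4 and 34.1 CPM in B6 and 39.1, 43.7 and 41.2 CPM in Irf1-/- colons. Their log2 FC were 0.60 for Cd4, 0.12 for Cd8b1, 0.060 for Thy1 and -0.18 for Itgae, without a call. Thy1 is on the list of fibroblast markers as well, so the sum is no measure of lymphocytes alone. In whole colon, fewer cells of a type and less RNA per cell cannot be told apart.

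Other called lower genes include receptors, a ligand and a transcript known from immune cells. Tnfrsf14 is the receptor also known as HVEM, Sectm1b encodes a ligand of Cd7, Ly75 is an endocytic receptor of dendritic cells and epithelium, and AW112010 is an interferon-induced transcript of lymphocytes and myeloid cells. AW112010 had 40.03, 37.4 and 36.4 CPM in B6 and 11.1, 12.4 and 11.05 CPM in Irf1-/- colons, and Ly75 had 72.3, 53.2 and 58.01 CPM in B6 and 17.6, 22.002 and 18.4 CPM in Irf1-/- colons. The mutants were within 2 CPM of each other for AW112010, and for both genes the lowest B6 mouse had more than 2-fold the level of any mutant. The log2 FC were -1.72 for AW112010 and -1.66 for Ly75 (adjusted p = 2.04e-05 and 0.000143), and both passed with each mouse left out. Sectm1b had 185, 126 and 172 CPM in B6 and 82.1, 93.2 and 88.1 CPM in Irf1-/- colons, and Tnfrsf14 had 18.01, 16.5 and 12.3 CPM in B6 and 7.44, 7.45 and 7.79 CPM in Irf1-/- colons. The B6 mice varied more than the mutants. With a mouse left out, Sectm1b passed only without B6 mouse 2 and Tnfrsf14 only without B6 mouse 3 (adjusted p up to 0.0522 for Sectm1b and 0.0471 for Tnfrsf14, log2 FC -0.87 and -1.04 with all mice). Both genes also lost their calls with voom and with the replicate block, and Tnfrsf14 with the GC correction. Nmi, an interferon-induced partner of Stat proteins, had 22.2, 20.8 and 19.9 CPM in B6 and 13.4, 13.4 and 12.1 CPM in Irf1-/- colons (log2 FC -0.69, adjusted p = 0.00822).

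A further group of called lower genes has other roles. Upp1 breaks down uridine, Mettl7a2 and Mettl7a3 encode methyltransferase-like proteins of lipid droplets, Entpd4 splits nucleotides in the Golgi, and Ano9 is an anoctamin of the membrane. Upp1 had 51.3, 30.2 and 44.1 CPM in B6 and 9.26, 11.4 and 10.3 CPM in Irf1-/- colons. Entpd4 had 87.5, 99.4 and 97.2 CPM in B6 and 49.2, 49.9 and 52.02 CPM in Irf1-/- colons, and Ano9 had 71.8, 73.9 and 72.2 CPM in B6 and 44.7, 49.02 and 45.5 CPM in Irf1-/- colons. Upp1 was about 4-fold lower in the mutants, while Entpd4 and Ano9 moved by less than 2-fold with little spread among mice. Their log2 FC were -2.02, -0.91 and -0.64 (adjusted p = 0.000531, 0.000143 and 0.000753), and each passed with each mouse left out. Mettl7a2 had 45.9, 29.7 and 37.5 CPM in B6 and 10.5, 12.2 and 14.2 CPM in Irf1-/- colons, and Mettl7a3 had 34.2, 30.6 and 31.5 CPM in B6 and 12.8, 11.3 and 17.4 CPM in Irf1-/- colons. These genes are near-identical, and with a mouse left out Mettl7a3 passed only without B6 mouse 2 or Irf1-/- mouse 3 (adjusted p up to 0.0206) where Mettl7a2 passed in all 6 fits. The log2 FC of Plac9b, a small secreted protein, was -1.93 (adjusted p = 0.00244), and it lost its call without Irf1-/- mouse 1 (adjusted p = 0.0170). Over control set 1 its log2 FC was -1.20, still a call (adjusted p = 0.00842, the same test). Apol7a and 2210407C18Rik, at mean levels of 7.84 and 7.92 CPM in B6, had log2 FC -1.37 and -1.66 and with a mouse left out both passed only without B6 mouse 2 (adjusted p up to 0.0478 and 0.0346). Srp54b, a copy of the signal recognition particle subunit, had a log2 FC of -0.62 (adjusted p = 0.00317, up to 0.0249 with a mouse left out, where it passed only without B6 mouse 1 or 2). Its near-identical copies Srp54a and Srp54c, named after their values were seen, had log2 FC -0.55 and -0.48 (adjusted p = 0.00401 and 0.00627). Plac9b, Entpd4, Apol7a and Sectm1b are near-identical to other genes as well, which makes their counts uncertain.

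Plau, Anxa8, Wdfy1 and 2010109I03Rik were among the 11 called higher genes. Plau encodes urokinase, which turns plasminogen into plasmin and is made by epithelium at wounds. It had 24.4, 16.6 and 21.8 CPM in B6 and 58.8, 64.3 and 49.99 CPM in Irf1-/- colons. Anxa8, an annexin of squamous and injured epithelium, had 61.9, 71.6 and 66.7 CPM in B6 and 136, 150.3 and 154 CPM in Irf1-/- colons. The lowest mutant was above the highest B6 mouse by more than 2-fold for Plau and by nearly as much for Anxa8. Plau was at log2 FC 1.46 and Anxa8 at 1.14 (adjusted p = 0.000691 and 9.17e-05, edgeR's quasi-likelihood test). Wdfy1, an adaptor on endosomes, had 49.7, 47.9 and 42.4 CPM in B6 and 95.8, 96.7 and 97.4 CPM in Irf1-/- colons. Its mutants were within 2 CPM of each other (log2 FC 1.05, adjusted p = 9.17e-05). These 3 genes passed with each mouse left out, but Anxa8 lost its call over control set 1 (log2 FC 0.17), over both control sets and with all 15 libraries in 1 fit. 2010109I03Rik, now named Ly6m, belongs to the Ly6 family of anchored surface proteins and had 40.7, 32.7 and 23.4 CPM in B6 and 116, 90.8 and 65.9 CPM in Irf1-/- colons. The levels spread within each group without overlap between them, and with a mouse left out the gene passed only without B6 mouse 1 or Irf1-/- mouse 3 (log2 FC 1.49, adjusted p = 0.00932, up to 0.0410). Its call was also lost with voom, with the GC correction and with all 15 libraries in 1 fit.

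The remaining 7 called higher genes each passed in 2 or fewer of the 6 fits with a mouse left out. Stc2, a secreted stanniocalcin, had 5.27, 4.78 and 6.28 CPM in B6 and 10.5, 12.9 and 13.6 CPM in Irf1-/- colons. Ffar2, the receptor for short-chain fatty acids, had 4.47, 5.71 and 5.74 CPM in B6 and 13.3, 11.05 and 10.3 CPM in Irf1-/- colons. Both have low counts and lost the call with each mouse left out (log2 FC 1.18 and 1.12, adjusted p = 0.00535 and 0.00756, up to 0.0314 and 0.0366). Egln3, an oxygen-dependent hydroxylase, had 37.9, 37.8 and 37.5 CPM in B6 and 52.3, 74.8 and 67.7 CPM in Irf1-/- colons. B6 mice had nearly equal levels of Egln3 and the mutants did not (log2 FC 0.78, adjusted p = 0.00894, up to 0.0473). With a mouse left out, Egln3 and Paqr5 passed only without Irf1-/- mouse 1, Cwh43 only without B6 mouse 2 and Vill only without B6 mouse 1 or 2. Cwh43, which remodels lipid anchors, and Vill, a villin-like protein, had log2 FC 1.12 and 1.08 (adjusted p = 0.00784 and 0.00305, up to 0.0424 and 0.0215). Paqr5, a membrane progestin receptor, and Cyp2c69, a cytochrome, had 0.62 and 0.70 (adjusted p = 0.00784 and 0.00843, up to 0.0408 and 0.0478). Near-identical relatives of Cyp2c69, named after their values were seen, had log2 FC 0.52 for Cyp2c68, 0.59 for Cyp2c40 and 0.62 for Cyp2c67 (adjusted p = 0.00756, 0.0144 and 0.0186), against -0.14, -0.081 and 0.10 over control set 1 (adjusted p = 0.609, 0.762 and 0.775). The list of repair and wound-associated epithelial genes held Plau, Anxa8 and Stc2 as its 3 called genes, with 14 of 23 positive and a median of 0.11. Of these 23, DESeq2 called 4, the exact test 5 and voom 3, and 2 were called higher over control set 1. Among all 12588 genes the tools called 107, 125 and 43 in either direction, and 41 of 12417 were called higher over control set 1.

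Of the pathway lists, 12 with 194 measured genes had 0 calls in edgeR's quasi-likelihood test, where 46 of these genes (23.7%, with 12 of them among the 16 clock genes) had an unadjusted p under 0.05, against 10.4% of all genes. DESeq2 called 6 of the 194, the exact test 8 and voom 0, against 107, 125 and 43 of all 12588 genes. Those called by DESeq2 were Arntl, Per3, Hspa1a, Hspa1b, Hsph1 and Irf4. The list of 9 interferon regulatory factors and 2 Irf2-binding proteins had 5 positive genes and a median log2 FC of -0.038. Irf7, which drives type I interferon, had 30.1, 25.9 and 27.9 CPM in B6 and 11.1, 23.6 and 12.2 CPM in Irf1-/- colons, and Irf4, a factor of lymphocytes, had 7.69, 11.5 and 9.04 CPM in B6 and 14.000, 18.1 and 13.9 CPM in Irf1-/- colons. Mutant mouse 2 had close to the B6 level of Irf7, and Irf4 was higher in every mutant than in every B6 mouse (log2 FC -0.84 and 0.70, adjusted p = 0.183 and 0.102). Irf4 turned to -0.37 over control set 1 (adjusted p = 0.301) and had -0.35 in treated mice (adjusted p = 0.425). Interferon receptors, Jak kinases, Stat factors and Socs inhibitors had a median of 0.00087 with 11 of 21 positive. Cytokines, chemokines and their receptors reached the table in 21 of 50 cases, with 15 positive and a median of 0.12. Among those not in the table were Cxcl9 and Cxcl10, chemokines that interferon gamma induces. Complement genes had a median of -0.071 (7 of 15 positive), and antimicrobial proteins and oxidases 0.078 (10 of 16). Crypt stem cell and Wnt target genes had a median of -0.072 (5 of 17), and immediate early genes 0.033 (9 of 16). The plot of log2 FC by list shows these values gene by gene.

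**Figure D2:**
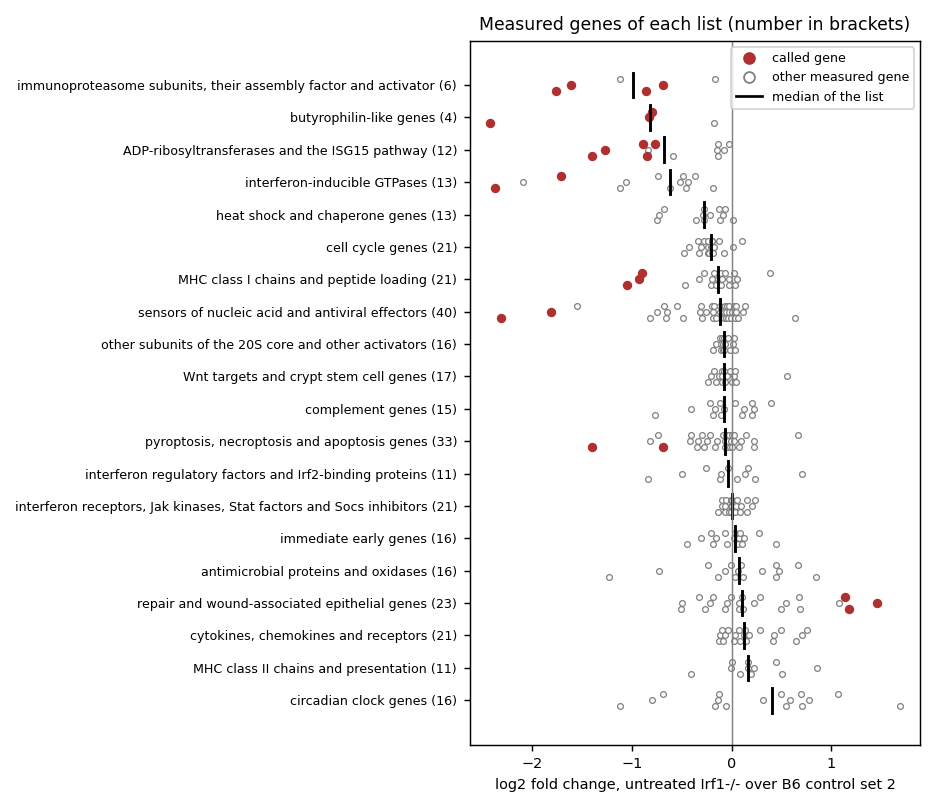
Log2 fold change of each measured gene, untreated Irf1-/- over B6 control set 2, for 20 hand-written lists ordered by their median. Points are genes, filled where called, and black bars are medians, the lowest of which is -0.99 for the immunoproteasome list.

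Some lists without a call depended on which untreated B6 mice served as controls. The median log2 FC of cell cycle genes was -0.21 over control set 2, with 2 of 21 positive, and 0.20 against control set 1. Heat shock and chaperone genes had -0.27 against set 2 and 0.10 against set 1. Hspa1a, which refolds proteins after heat, had log2 FC -0.75 and 0.49 (adjusted p = 0.0459 and 0.0315). Circadian clock genes had 0.41 and -0.14, and 0.33 (12 of 17 positive) in treated Irf1-/- over treated B6 mice. Arntl, the activator at the core of the clock, had 81.5, 63.5 and 45.1 CPM in B6 and 29.7, 30.2 and 27.7 CPM in Irf1-/- colons, and Per3, a repressor of it, had 38.3, 36.4 and 48.8 CPM in B6 and 55.8, 72.1 and 84.5 CPM in Irf1-/- colons. Arntl was lower and Per3 higher in every mutant than in every mouse of control set 2, without a call in edgeR's quasi-likelihood test (log2 FC -1.12 and 0.78, adjusted p = 0.0124 and 0.0380). Against control set 1 the values were -0.090 and -0.49 (adjusted p = 0.833 and 0.0908). In treated mice they were -1.44 and 0.77 (adjusted p = 0.0466 and 0.143, the same test). Against set 1, cytokines, chemokines and their receptors had a median log2 FC of -0.016 with 8 of 20 positive, antimicrobial proteins and oxidases -0.070 (7 of 15), and Jak, Stat and receptor genes -0.068 (5 of 21). Interferon regulatory factors with the Irf2-binding proteins had -0.14 (1 of 11). The mutants are the same in the comparisons with control sets 1 and 2. Directly compared, control set 2 over set 1 had medians of 0.45 for cell cycle, 0.38 for heat shock and -0.47 for clock genes, and 8 of 12417 genes (0.0644%) were called between them, 5 lower (0.0403%) and 3 higher (0.0242%). In the same test 2134 of the 12417 genes had an unadjusted p under 0.05. Between the mutants and control set 2 there were 1313 of 12588.

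Of 177 measured marker genes in 17 cell type lists, 0 were called in edgeR's quasi-likelihood test and 37 (20.9%) had an unadjusted p under 0.05, against 10.4% of all genes. Voom called 0, and DESeq2 and the exact test each called Muc2 and Krt15, where they called 107 and 125 of all 12588 genes. Absorptive colonocytes had a median log2 FC of -0.0015 with 9 of 18 positive, and smooth muscle 0.013 with 10 of 18. Fibroblasts had -0.0018 (8 of 17), and macrophages and dendritic cells -0.055 (9 of 20). Blood and lymph endothelium had 0.039 (11 of 13), enteroendocrine cells 0.011 (5 of 8), tuft cells 0.11 (6 of 8), and enteric neurons and glia 0.11 (8 of 10). Against control set 1 the median of neurons and glia was -0.32 (1 of 10 positive), that of macrophages and dendritic cells -0.27 (4 of 20) and smooth muscle -0.080 (7 of 18). Goblet cells had 0.17 (9 of 14) against control set 2 and 0.53 (13 of 13, 3 called higher) against set 1, where the enteroendocrine markers Gcg and Insl5 were called higher as well. Muc2, the main mucin of goblet cells, had 2463, 2048 and 2723 CPM in B6 and 3798, 3610.2 and 3738 CPM in Irf1-/- colons, a log2 FC of 0.62, adjusted p = 0.0314, and over control set 1 it was called higher (log2 FC 1.30, adjusted p = 0.00321). The 13 measured markers of B cells and plasma cells were all positive against control set 2, with a median of 0.64, and 6 were positive against set 1, with -0.019. Their sums were 4087, 3828 and 3948 CPM in B6 and 4610.1, 4307 and 3571 CPM in Irf1-/- colons, of which Pigr, which epithelium makes, was 86.9%. Adipocyte markers had a median of -0.30 (1 of 6 positive), with Adipoq and Plin1 not in the table. Neutrophil, eosinophil and mast cell markers reached the table in 3 of 23 cases (Kit, Cxcr2 and Csf3r, median -0.035). Those not measured include S100a8, S100a9, Siglecf, Epx, Cpa3, Mcpt1 and Mcpt2, so this median says little of these cells. Mesothelium had 1 measured marker of 7 (Krt19, 0.071). For exocrine pancreas 2 of 13 were measured (Cela1 and Clps, median 0.23).

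Tissue next to the colon varied between libraries. Skeletal muscle markers, led by Acta1, summed to 351, 404 and 513 CPM in B6 and 299, 407 and 294 CPM in Irf1-/- colons over 11 of 12 genes. B6 mouse 3 had the most and mutant mouse 3 the least, and the median log2 FC was -0.29 against control set 2 and 0.35 against set 1. Ryr1, the calcium channel of skeletal muscle and a called lower gene, had 23.7, 23.9 and 25.998 CPM in B6 and 12.5, 16.1 and 12.8 CPM in Irf1-/- colons (log2 FC -0.83, adjusted p = 0.00756). Against control set 1 it had -0.045 (adjusted p = 0.927), and with a mouse left out it passed only without Irf1-/- mouse 2 (adjusted p up to 0.0420). Markers of the squamous epithelium of the anal canal, led by Krt4, summed to 291, 546 and 579 CPM in B6 and 657, 403 and 489 CPM in Irf1-/- colons over 12 of 13 genes. The groups overlapped, with B6 mouse 1 lowest and mutant mouse 1 highest, while Anxa8, which this epithelium also makes, was higher in all mutants. Over control set 1, the log2 FC of Anxa8 was 0.17 (adjusted p = 0.775). The part of these tissues in the values of Ryr1 and Anxa8 was not tested.

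The untreated mutants were also set against control set 1, the other 3 untreated B6 mice, which calls 137 of 12417 genes (1.1%), 96 lower and 41 higher (0.773% and 0.33%). The comparisons share the mutants, so their values stand side by side only. Log2 FC against set 2 and set 1 were -1.61 and -1.70 for Psmb10, -2.38 and -2.37 for Gbp2, -1.40 and -1.42 for Nlrp6, and -2.42 and -2.86 for Btnl6. For Plau they were 1.46 and 1.39, and for Wdfy1 1.05 and 1.19. Of the genes called against set 2, 35 of 40 lower and 5 of 11 higher ones were also called against set 1 in the same edgeR quasi-likelihood test. Of those that were not, 2010002M12Rik, 2210407C18Rik and Cwh43 kept log2 FC of -1.33, -1.14 and 0.94 (adjusted p = 0.0205, 0.0237 and 0.0201), and others lay nearer to 0. Among lower genes, Snord17, a small nucleolar RNA, had -0.099 (adjusted p = 0.891), and Mid1, a ubiquitin ligase on microtubules, had -0.042 (adjusted p = 0.886). Against set 2 these had -0.89 and -0.69 (adjusted p = 0.00822 and 0.00535, up to 0.0475 and 0.0307 with a mouse left out). Among higher genes, Cyp2c69 had 0.019 (adjusted p = 0.965) and Paqr5 0.085 (0.816) against set 1. Egln3 had 0.33 (0.261) and Vill 0.43 (0.232).

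**Figure D3:**
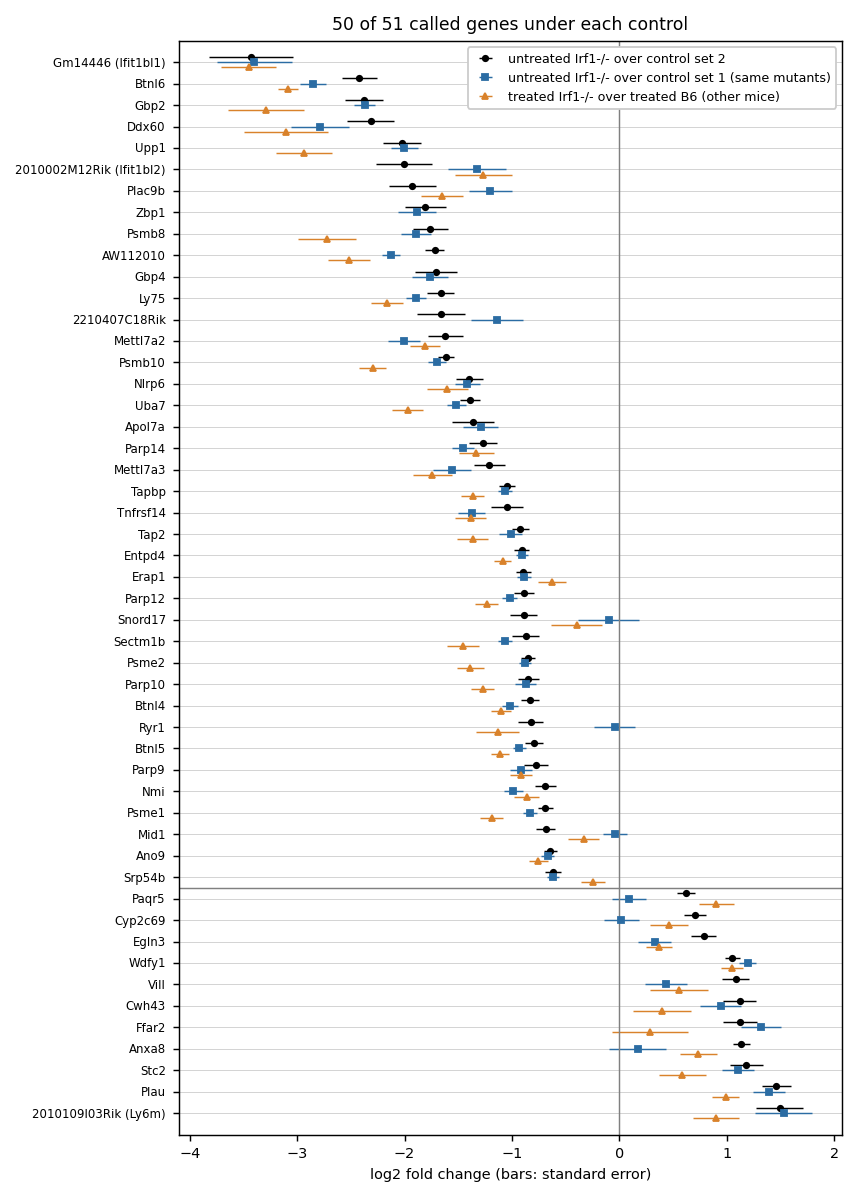
Log2 fold change of 50 of the 51 called genes with standard errors, untreated Irf1-/- over control set 2 (black), the same mutants over control set 1 (blue) and treated Irf1-/- over treated B6 (orange, other mice, 46 genes). Against control set 1 Snord17, Ryr1, Mid1, Cyp2c69 and Paqr5 lie near 0.

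The genotypes were compared again in the mice taken at D26 after AOM and DSS, none of which are among the untreated mice. In treated mice 39 lower genes (0.312% of 12483) and 9 higher ones (0.0721%) were called. These numbers moved to 6 and 1 with the replicate number as a block, and to between 16 and 45 lower and 1 and 8 higher genes with a treated mouse left out. Of the 40 genes called lower without treatment, 36 were tested in treated mice, 30 of these (83.3%) were called lower there too, and all 36 were negative, where 48.5% of all genes in treated mice were positive. Conversely, these 30 genes are 76.9% of the 39 called lower in treated mice. The 4 genes not tested in treated mice, Zbp1 and Gbp4 among them, were too low in Irf1-/- libraries to be kept by the filter on CPM. The 83.3% thus covers only genes that stayed above that limit in Irf1-/- mice. Of the 11 genes called higher without treatment, Wdfy1 and Plau were called higher in treated mice (18.2%, and 22.2% of the 9 called there), and all 11 were positive. Psmb10 had 75.4, 93.6 and 94.9 CPM in treated B6 and 15.7, 19.6 and 18.4 CPM in treated Irf1-/- colons, a log2 FC of -2.30 (adjusted p = 0.000126). Plau had 28.9, 37.4 and 34.6 CPM in treated B6 and 76.8, 64.9 and 58.9 CPM in treated Irf1-/- colons, a log2 FC of 0.99 (adjusted p = 0.00856). In treated mice, too, every mutant lay below every B6 mouse for Psmb10 and above every B6 mouse for Plau. Among list medians, the 5 immunoproteasome genes measured in both had -1.39 in treated and -0.85 in untreated mice. Class I chains and loading factors had -0.63 and -0.13. MHC class II genes had -0.57 (1 of 11 positive) in treated and 0.17 in untreated mice. Skeletal muscle markers had -1.02 (0 of 11 positive) and -0.29.

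The difference between the genotype effects with and without treatment was tested as an interaction in edgeR's quasi-likelihood fit. It called 0 of 12370 genes, with 1854 at an unadjusted p under 0.05 and a smallest adjusted p of 0.0668, and no other tool was run on it. Among the 36 called lower genes in this test, 17 had an unadjusted p under 0.05 and the smallest adjusted p was 0.136, that of Psmb10, whose log2 FC in treated mice less that in untreated mice was -0.66. Treated libraries differed in other ways. Xist had 573, 134 and 53220 reads in treated B6 and 263, 40505 and 19897 in treated Irf1-/- libraries. Median log2 FC of markers in treated mice were -1.02 for skeletal muscle (0 of 11 positive) and -0.30 for absorptive colonocytes (2 of 18). Squamous epithelium had 0.39 (10 of 12). The log2 FC of treated mice ran with GC content (rho = -0.581 by Spearman's method over 12383 genes, which are no independent replicates), against 0.0167 across 12482 genes in untreated mice. The part of these differences in the treated values was not tested beyond a GC correction.

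By the gene order of RefSeq, the 10 tested genes on each side of Irf1 had log2 FC from -0.20 to 0.43, 11 of 20 were positive and 0 were called in edgeR's quasi-likelihood test, DESeq2, the exact test or voom, with 4 at an unadjusted p under 0.05 and a smallest adjusted p of 0.237. Among called genes, by a rule chosen after their values were seen, 8 pairs had at most 2 tested genes between them, and 5 pairs had none. They are Btnl4, Btnl5 and Btnl6, Psmb8 and Tap2, Psme1 and Psme2, Parp9 and Parp14, Mettl7a2 and Mettl7a3, and Gm14446 and 2010002M12Rik, 13 genes that were all lower. Several of these pairs are copies of each other, while Psmb8 and Tap2, which lie in the MHC, are not related in sequence.

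Promoters were searched because promoters of interferon-inducible genes are known for GAAA repeats. RefSeq promoters (250 bases before to 50 after the start, GRCm38.p6) were at hand for 28 of the 40 lower, 8 of the 11 higher and 9952 of the 12588 tested genes. GAAA-NN-GAAA, where N is any base, on either strand (TTTC-NN-TTTC on the other) was in 7 of the 28 lower genes (25%) and 0 of the 8 higher genes, against 362 of the tested genes (3.64%) and 1079 of 27025 genes with a promoter (3.99%). The longer motif that adds a further NN-GAAA to it, and so contains it, was in 0 of the 28, in 0 of the 8, in 16 of the tested (0.161%) and in 36 of all (0.133%). TTCNNNGAA, a Stat motif, was in 1 lower (Psmb8, 3.57%), 1 higher (Vill, 12.5%), 8.20% of tested and 9.55% of all genes, and TATAAA in 7 lower (25%), 1 higher (12.5%), 9.61% of tested and 15.7% of all genes. The 7 lower genes with GAAA-NN-GAAA are Gm14446, 2010002M12Rik, Gbp2, Ddx60, Tnfrsf14, Erap1 and Psme1. Windows around the motif are printed for 6 of these genes, to show its letters and its copies, 5′ to 3′ on the strand of the gene, with the motif in capitals. Ifit1bl2 (chr19:34640760-34640838, minus strand) and Ddx60 (chr8:61928009-61928086, plus strand) hold it in 2 copies, the first starting 70 and 53 bases before the start of the gene. Of the promoter entries of Ifit1bl1, the one with the longer distance is printed. Ifit1bl1 (chr19:34602038-34602097, minus strand), Gbp2 (chr3:142620579-142620638, plus strand) and Tnfrsf14 (chr4:154928107-154928166, minus strand) hold it on the other strand, 104, 59 and 64 bases before the start. In Erap1 (chr13:74639839-74639868, plus strand) it lies across the start.
Ifit1bl2: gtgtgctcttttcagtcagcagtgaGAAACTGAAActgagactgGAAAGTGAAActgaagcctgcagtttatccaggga
Ddx60: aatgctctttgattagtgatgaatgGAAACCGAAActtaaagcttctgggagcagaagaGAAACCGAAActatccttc
Ifit1bl1: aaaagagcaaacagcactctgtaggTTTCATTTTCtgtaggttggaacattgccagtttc
Gbp2: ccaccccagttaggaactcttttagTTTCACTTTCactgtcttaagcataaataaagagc
Tnfrsf14: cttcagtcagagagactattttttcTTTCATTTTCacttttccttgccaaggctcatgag
Erap1: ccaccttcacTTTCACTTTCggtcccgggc
A match describes letters only. Called genes with no promoter entry include Zbp1, Gbp4, Parp14, Mettl7a3, Tap2, Entpd4, Snord17, Parp10, Btnl5, Parp9, Ano9, Wdfy1, Plau and 2010109I03Rik.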

How the data were processed

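RNA from distal colon was depleted of ribosomal RNA and sequenced as pairs of 50 bp reads from stranded libraries. The authors deposited unnormalized counts of reads per gene in 3 tables, from which they had left out genes of low CPM (the lowest level of the 3 libraries highest for a gene was 5.03 CPM in the table of untreated mice). The submitters' processing notes name TopHat2 2.0.9, Bowtie 1.0.0, featureCounts and edgeR, with the mm9 genome. The CPM and log2 CPM that the authors deposited (36 columns) were not used. The log2 fold changes, p-values and scores (tagwise dispersion and call) that the authors deposited hold their own comparison and were not used.

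Counts of 3 untreated Irf1-/- and 3 untreated B6 libraries (22266607 to 22869853 reads each) were scaled by TMM and fitted with the quasi-likelihood model of edgeR 4.0.16 in R 4.3.3, over all 12588 genes, with Benjamini-Hochberg adjustment. A gene was called at an FC of at least 1.5 and an adjusted p under 0.01, 2-sided. CPM are edgeR's, with TMM factors, except that values over all 15 libraries come from a joint scaling. The same fit was run on the treated mice, on control set 1, between the control sets, and for the difference between treated and untreated genotype effects. With 3 mice a group, an exact permutation test of a single value cannot go below p = 0.1, so no such test was used. Members and lists were chosen with earlier results of these data known. Genes named were Irf1, every called gene, up to 4 members with the smallest p and the most abundant member of a list, and the 10 tested genes on each side of Irf1, and not all of them are printed. A gene called lower and 2 genes that were not called are not reported here by name, also not in the figures. Others were chosen after their values were seen. The 38 lists were described by counts and medians, with no set test. Of the 743 genes in them 516 were measured.

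Alternatives were DESeq2 1.42.0 (Wald test), size factors by RLE, voom of limma 3.58.1, the exact test of edgeR, a filter of 10 CPM in 3 libraries, a block for the replicate number, fits that each left out a mouse, 0.05 as the limit on the adjusted p, control set 1 or both sets, and all 15 libraries in 1 fit. A lowess correction on GC content (span 0.3, GENCODE M21 transcripts, 99.2% of genes matched), alone and with the block, was added after seeing the data. Of the 12588 symbols 11710 matched RefSeq (GRCm38.p6) directly, 809 through an older symbol and 69 not at all. RefSeq served for gene order and promoters only, since no mm9 genome was at hand. The fit of untreated mice was checked on counts simulated from its mean levels and dispersion. It recovered 28 of 50 genes changed 1.5-fold, 48 of 50 changed 2-fold and 50 of 50 changed 3-fold, with 4 false calls. Changes near the limit of 1.5 can thus be missed. Python 3.11.15, numpy 2.4.6, pandas 2.3.3 and matplotlib 3.10.9 were used.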

Additional observations from a re-analysis of the deposited data

How the results depend on the processing

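In untreated mice the 40 lower and 11 higher genes became 76 and 31 with DESeq2, 84 and 41 with the exact test, 96 and 41 with control set 1, 64 and 19 with both control sets and 69 and 24 at an adjusted p under 0.05. Higher genes fell to 7 with voom (36 lower) and 4 with all 15 libraries in 1 fit (37 lower). RLE size factors gave 40 and 11, and a 10 CPM filter 39 and 11. With the replicate block there were 36 lower and 8 higher genes, of which 30 and 4 were called without it. Lower genes that lost their call with the block were 2010002M12Rik, 2210407C18Rik, Apol7a, Tnfrsf14, Snord17, Sectm1b, Ryr1, Parp9, Nmi and Mid1. Higher genes that lost it were Paqr5, Cyp2c69, Egln3, Vill, Cwh43, Ffar2 and Stc2. The GC correction gave 41 and 9, and with the block 40 and 11, both added after seeing the data. Deviations of same-numbered libraries correlated across genes at r = 0.00043 to 0.055 in untreated mice, and 2 of 6 libraries were closest to their own number. Leaving out each mouse gave 20 to 45 lower and 3 to 19 higher genes. The lower count moved by over 1.5 times without Irf1-/- mouse 1 (20) or 3 (25), and the higher count without B6 mouse 2 (19) or 3 (7) or Irf1-/- mouse 1 (6) or 2 (3). Of the 51 called genes, 30 passed in all 12 settings other than leaving out a mouse, Zbp1 and Gbp4 passed in the 10 of these that could test them, 20 passed in all 18 settings, and 0 reversed. With control set 1, Igj had a log2 FC of -0.95 (adjusted p = 0.00296) and Actn2 0.87 (adjusted p = 0.00973), each opposite in sign to the value against set 2. Of 38 list medians, 17 moved by more than the spread between mice with control set 1, 6 with both sets, 1 with the 10 CPM filter and 0 with RLE. Of 164 named genes not called, 24 passed in at least 1 other setting. In treated mice the 39 lower and 9 higher genes became 142 and 128 with DESeq2, 142 and 125 with the exact test, and 106 and 78 at an adjusted p under 0.05. The replicate block left 6 and 1, the GC correction 42 and 3, and both together 7 and 1. Leaving out each treated mouse gave 16 to 45 lower and 1 to 8 higher genes. Lower counts were 24 and 19 without treated B6 mouse 2 or 3, and 16, 17 and 21 without treated Irf1-/- mouse 1, 2 or 3. Higher counts were 3 and 1 without treated B6 mouse 1 or 3, and 1, 1 and 3 without treated Irf1-/- mouse 1, 2 or 3. The cause was not tested. Counts per gene do not tell exons or cells apart, and genes under the table's lower limit of CPM were not measured.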

Other observations

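Among the mutants, mouse 2 had the highest levels of several genes that interferons induce, a pattern chosen after the values were seen and not tested. Irf1 had 79.1, 117 and 87.3 CPM in Irf1-/- mice 1, 2 and 3, Tap1 22.6, 36.2 and 22.8 and Psmb9 4.03, 8.34 and 4.36. Irf9, which takes part in type I interferon signalling, had 34.4, 49.1 and 32.6 CPM and Irf7 11.1, 23.6 and 12.2. In B6 mice 1, 2 and 3 these genes had 29.9, 38.7 and 25.5 CPM (Tap1), 33.02, 33.96 and 31.7 (Irf9) and 30.1, 25.9 and 27.9 (Irf7). Mutant mouse 2 was thus above all B6 mice for Irf9 and within their range for Tap1. Other interferon-induced genes did not share the pattern. Gbp2 (8.86, 7.27 and 7.31 CPM in mutants 1, 2 and 3) and Gm14446 (25.9, 21.6 and 6.51 CPM) were highest in mutant mouse 1. Gbp4 (3.72, 3.77 and 3.87 CPM) was highest in mutant mouse 3. Of the 40 called lower genes, mouse 2 was the highest of the mutants for 23, mouse 3 for 11 and mouse 1 for 6. Of the 11 called higher genes, mouse 2 was the highest for 2, mouse 3 for 5 and mouse 1 for 4. These counts were not set against all genes. What sets mouse 2 apart was not tested.

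Claudins, which set what tight junctions let through, were named after their values were seen. Cldn4 had 38.7, 24.7 and 23.9 CPM in B6 and 53.6, 69.7 and 61.3 CPM in Irf1-/- colons, a log2 FC of 1.08, adjusted p = 0.0138. Cldn8, which tightens the junctions of the distal colon, had 154, 139.9 and 110.4 CPM in B6 and 85.1, 79.2 and 66.6 CPM in Irf1-/- colons, a log2 FC of -0.81, adjusted p = 0.0123. Neither was called by edgeR's quasi-likelihood test or voom, both were called by DESeq2 and the exact test, and against control set 1 their log2 FC were 0.032 and -0.12 (adjusted p = 0.927 and 0.568), with the mutants shared between the comparisons.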
